A study of Mus musculus with 2 samples.

Results

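The genes described here control G1, the phase of the cell cycle before DNA replication. They are the D cyclins Ccnd1, Ccnd2 and Ccnd3, the E cyclins Ccne1 and Ccne2, the kinases Cdk2, Cdk4 and Cdk6, and the inhibitors Cdkn1a and Cdkn1b, 10 of the 43346 mouse genes in the tables, chosen by name for their role. They were measured by total RNA-seq in facial prominences, from which the face grows, of healthy, mixed-sex B6NCrl mouse embryos at 15.5 days. The 2 libraries were labelled biological replicates 1 and 2 and came from pools of 78 and 62 embryos, with 10 ng of RNA longer than 200 nucleotides in each. No treatment, genotype or second tissue was studied, so levels, their order and the ratio between the replicates are the comparisons the design allows, and no test between groups exists. With 2 pools, an SD rests on n = 2 throughout.

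As background, growth signals raise the D cyclins, which bind Cdk4 or Cdk6 and start the phosphorylation of the retinoblastoma protein. E cyclins then bind Cdk2 and complete it, which frees E2F factors to switch on the genes of DNA replication. The Cip/Kip inhibitors p21 (Cdkn1a), p27 (Cdkn1b) and p57 (Cdkn1c) bind cyclin-kinase complexes and restrain Cdk2. The p53 factor induces Cdkn1a, while p27 is set largely by protein turnover. The embryonic face holds mesenchyme, epithelium, cartilage and muscle at once, with cells that divide and cells that leave the cycle.

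Sequences of the features on which the results turn are shown first. Promoter sequences are from RefSeq (GRCm38.p6), whose table held 9 start sites for 7 of the 10 genes and none for Ccnd1, Ccnd2 and Ccne2. Each shown is the 250 bases upstream of a start site, and the exons and transcript ends come from GENCODE M21 transcripts on GRCm38. Motif letters were chosen with these sequences known and searched on both strands.

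The Cdk4 promoter, chr10:127063285-127063534 on the plus strand, is shown because Cdk4 had the highest deposited gene level of the 10. Capitals mark CACGTG, the E-box letters bound by Myc and related factors.
Cdk4 promoter: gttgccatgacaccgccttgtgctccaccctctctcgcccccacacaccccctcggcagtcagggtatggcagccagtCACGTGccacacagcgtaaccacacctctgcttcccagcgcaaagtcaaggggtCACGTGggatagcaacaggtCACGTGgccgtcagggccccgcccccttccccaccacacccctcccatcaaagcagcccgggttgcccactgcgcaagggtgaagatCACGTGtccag
The 4 matches lie 172, 118, 98 and 11 bases before the start. CACGTG was present in 6.02% of the 32851 promoter windows of that length, and 3 or more matches in 20 of them, 0.0609%. Among the 9 windows of G1 genes, Cdk6 had 1 match and the other windows had none. CACGTG is its own reverse complement, so each site was counted once.

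Cdkn1a has 2 RefSeq promoters, shown because its transcripts divided between them. The first, at chr17:29090729-29090978, lies before the upstream start, and the second, at chr17:29093519-29093768, before a start 2790 bases downstream, both on the plus strand. Capitals mark ACATGT, 4 further bases and ACATGT again, letters that form the core of a p53 response element.
Cdkn1a upstream promoter: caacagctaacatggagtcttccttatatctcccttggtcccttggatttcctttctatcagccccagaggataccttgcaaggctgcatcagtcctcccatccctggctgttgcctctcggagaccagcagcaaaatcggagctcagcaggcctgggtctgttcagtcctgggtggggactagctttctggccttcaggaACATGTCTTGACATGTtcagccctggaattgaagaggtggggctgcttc
Cdkn1a downstream promoter: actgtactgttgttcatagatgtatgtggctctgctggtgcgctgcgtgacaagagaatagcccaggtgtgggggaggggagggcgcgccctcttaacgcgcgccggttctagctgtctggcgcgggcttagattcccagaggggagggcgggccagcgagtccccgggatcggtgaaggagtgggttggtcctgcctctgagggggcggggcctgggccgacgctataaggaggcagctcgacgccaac
The match lies 49 bases before the upstream start, and that spacing of ACATGT occurred in 4 of the 32851 windows, 0.0122%. The downstream window had no match to these letters, and other spellings or spacings of p53 response elements were not searched. TTTCCCGC, one of the E2F letter strings searched, occurred in the Cdk2 window and in 0.895% of all windows, while TTTCGCGC and TTTGGCGC occurred in none of the 9 and in 0.256% and 0.417% of all. TATAAA was found before Cdk6 (12.4% of all windows) and CCAAT before Cdkn1b, Cdk2 and Ccnd3-205 (33.8%).

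The next sequences separate transcripts of 1 gene. The first is the exon of 144 nucleotides that only the longer Cdk2 transcript has, chr10:128699976-128700119 on the minus strand. It lies inside the coding sequence and adds 48 codons.
Cdk2-202 exon: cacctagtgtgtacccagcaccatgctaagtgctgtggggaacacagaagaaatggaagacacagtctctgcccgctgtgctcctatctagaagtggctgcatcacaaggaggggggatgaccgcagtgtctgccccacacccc
The second is the coding exon of 136 nucleotides that Cdk4-208 lacks, chr10:127064585-127064720 on the plus strand. Its length is not a multiple of 3, so its absence shifts the reading frame.
Cdk4 exon absent from Cdk4-208: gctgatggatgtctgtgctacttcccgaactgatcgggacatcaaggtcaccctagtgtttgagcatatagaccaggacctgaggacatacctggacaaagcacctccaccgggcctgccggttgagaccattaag
The last are the 5′ ends of the short retained-intron transcripts Cdk4-209 (chr10:127066076-127066135, plus strand) and Ccnd1-202 (chr7:144938068-144938197, minus strand). Capitals mark the bases that the complete coding transcript of the same gene lacks, and lower case the 35 bases that follow, which both share.
Cdk4-209: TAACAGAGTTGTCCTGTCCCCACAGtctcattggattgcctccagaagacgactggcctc
Ccnd1-202: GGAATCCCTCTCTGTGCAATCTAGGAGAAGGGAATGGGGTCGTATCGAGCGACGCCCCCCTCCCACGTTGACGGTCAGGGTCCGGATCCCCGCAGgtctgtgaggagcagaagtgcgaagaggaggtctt
These are 25 of the 468 nucleotides of Cdk4-209 and 95 of the 470 of Ccnd1-202. Both stretches are the end of an intron, read on into the exon.

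In TPM, the unit of level in the tables, all 10 genes were detected at 1 or more in both libraries, and all 10 at 10 TPM, a level that 42.2% of 21474 protein-coding genes reached. TPM divides counts by transcript length and scales each library to 1 total, so it allows levels of different genes to be compared. Median levels of the 10 genes were 95.1 TPM in replicate 1 and 90.2 TPM in replicate 2, beside 18.0 and 18.1 TPM over the 14052 coding genes at 1 TPM or more. Expected counts per gene were between 1014 and 22056 in replicate 1 and between 943 and 22496 in replicate 2, out of 36048494 and 36774513 for mouse genes. At the lowest of these, counting error alone allowed 6.16% and 6.38% either way (95% Poisson half-width). Markers of facial mesenchyme and of epithelium were detected in full, 5 of 5 in each list, while 0 of 5 forebrain markers and 1 of 5 liver markers reached 1 TPM in both libraries. In bulk tissue, fewer cells with a transcript and less of it per cell cannot be told apart.

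Ccnd3 was the most abundant D cyclin. The gene lies at chr17:47505051-47599691 and was measured at 462 TPM in replicate 1 and 434 TPM in replicate 2, 448 ± 19.3 TPM (mean ± SD). Ccnd2, at chr6:127125162-127152193, was measured at 160 and 156 TPM (158 ± 2.50). Ccnd1, at chr7:144929931-144939925, was measured at 112 and 103 TPM (108 ± 6.37), the lowest of the 3. The 3 genes kept this order in both libraries and their values did not overlap. Ccnd3 took 62.8% ± 0.229 of D cyclin TPM, Ccnd2 22.2% ± 0.526 and Ccnd1 15.1% ± 0.296. The level of Ccnd3 was 4.16 ± 0.0665-fold that of Ccnd1 in deposited TPM, 8.19 ± 0.339-fold over complete coding transcripts and 7.48 ± 0.255-fold with all counts on 1 transcript length.

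The order of the D cyclins held for levels per length and not for counts. Ccnd2-201, the only Ccnd2 transcript in the tables, is 5701 nucleotides long, and Ccnd3-205 is 1977. In CPM, the counts scaled to a common total and not per length, Ccnd2 had 612 in each replicate and Ccnd3 583 and 560, so Ccnd2 gave 45.9% ± 0.883 of D cyclin counts and Ccnd3 42.9% ± 0.401.

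Within Ccnd3, 1 transcript out of 21 held nearly all of the level. Ccnd3-205, a coding transcript that starts at position 47593470, took 94.1% and 93.7% of the gene's TPM. The 13 transcripts with a far upstream start, between positions 47505051 and 47505241, summed to 7.50 and 6.71 TPM, 1.62% and 1.55%. Ccnd3-206, a retained-intron transcript that starts at 47593436, close to Ccnd3-205, had 4.39 and 4.06 TPM. The RefSeq promoters for the upstream and downstream starts had a GC content of 59.6% and 64.8%. A processed pseudogene, Ccnd3-ps, is 96.3% identical over 881 nucleotides and had 24.0 and 10.0 counts, beside 21034 and 20604 for Ccnd3.

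In deposited TPM, Ccnd1 was divided almost evenly between its 2 transcripts. Its complete coding transcript Ccnd1-201 was measured at 56.6 and 50.3 TPM and the retained-intron transcript Ccnd1-202 at 55.7 and 52.9 TPM. Ccnd1-202 thus took 49.6% and 51.2% of the gene's TPM, the larger share in replicate 2 only. In counts it held 9.11% and 9.67%, since TPM divides by its length of 470 nucleotides. Ccnd1-202 shares 375 of these nucleotides with Ccnd1-201, which limits how the counts can be divided between the 2. Counting complete coding transcripts alone, Ccnd1 had 53.4 ± 4.42 TPM and 8.23% ± 0.364 of the D cyclin level, beside 67.4% ± 0.190 for Ccnd3.

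The E cyclins, which drive Cdk2 at the end of G1, were lower than the D cyclins. Ccne1, at chr7:38097984-38107534, was measured at 48.2 and 49.0 TPM (48.6 ± 0.573). Ccne2, at chr4:11191351-11204779, was measured at 36.1 and 32.1 TPM (34.1 ± 2.83). Ccne1 was the higher of the pair in both libraries, by 1.34-fold and 1.53-fold, and took 58.8% ± 2.30 of their summed TPM. In CPM the pair was not separable, with 60.0 and 63.7 for Ccne1 and 64.5 and 60.8 for Ccne2. The 3 D cyclins together were 8.63 ± 0.106-fold the 2 E cyclins, 734 against 84.3 TPM in replicate 1 and 694 against 81.1 TPM in replicate 2. Over complete coding transcripts they were 8.27 ± 0.275-fold. On that scale the lowest D cyclin, Ccnd1, was only 1.24-fold and 1.06-fold the level of Ccne1 in replicates 1 and 2.

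Ccne1-201, a coding transcript of 2000 nucleotides, took 94.6% and 97.1% of Ccne1. Ccne2-202 took 81.2% and 78.3% of Ccne2, and the coding transcript Ccne2-201 9.12% and 10.6%. Shares of minor Ccne2 transcripts differed between replicates: the coding Ccne2-207 took 1.41% and 6.43%, and the short noncoding Ccne2-204 5.04% and 0%, from 14.3 counts and 0. Their deposited credibility bounds overlapped, so these differences are not resolved. In TPM the bounds ran from 2.13e-04 to 2.84 and from 7.46e-07 to 3.22 for Ccne2-207 in replicates 1 and 2. For Ccne2-204 they ran from 0.144 to 3.14 and from 3.87e-05 to 2.00.

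Cdk4, the partner kinase of the D cyclins, had the highest deposited level of the 10 genes. At chr10:127063534-127067920, it was measured at 1105 and 1065 TPM (1085 ± 28.3), rank 73 among coding genes by mean TPM. Cdk2, the partner of the E cyclins, at chr10:128697939-128705031, was measured at 77.9 and 77.2 TPM (77.6 ± 0.530). Cdk6, the second partner of the D cyclins, at chr5:3341485-3531008, was measured at 20.0 and 21.5 TPM (20.8 ± 1.03). The 3 kinases kept this order in both libraries without overlap. Cdk4 took 91.7% ± 0.238 of their summed TPM, Cdk2 6.56% ± 0.109 and Cdk6 1.76% ± 0.129.

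**Figure D1:**
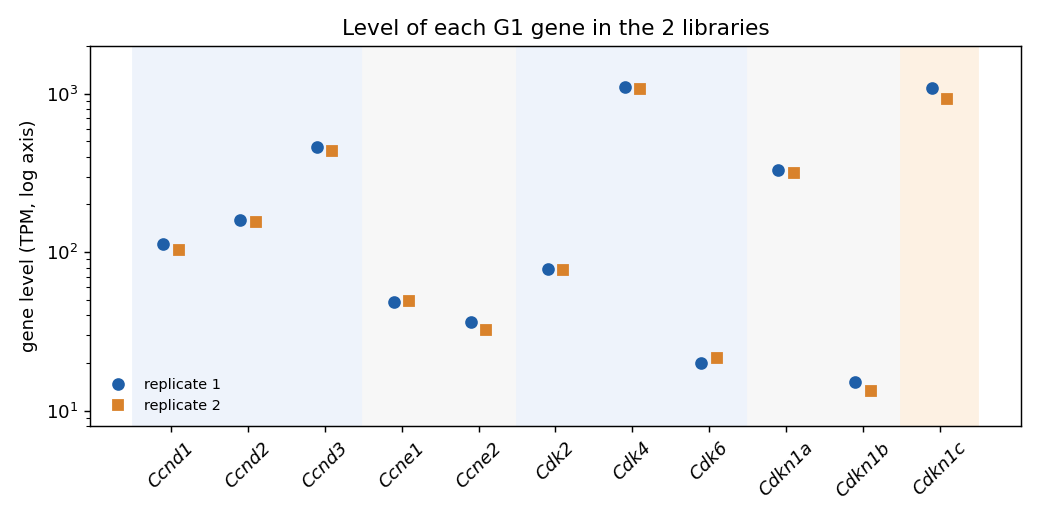
Level of each G1 gene (TPM, log axis) in replicate 1 (circles) and replicate 2 (squares), ordered by role, with Cdkn1c for reference at the right. The replicates lie close together, Cdk4 stands highest at 1105 and 1065 TPM, and Cdkn1b lowest at 15.2 and 13.3 TPM.

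The Cdk4 level rested mainly on short or incomplete transcripts. Cdk4-201, the full coding transcript of 2053 nucleotides, was measured at 116 and 124 TPM, 10.5% and 11.6% of the gene. Cdk4-209, the retained-intron transcript of 468 nucleotides, took 39.6% and 39.7%, at 438 and 423 TPM. Cdk4-205, with a coding sequence annotated as incomplete and 950 nucleotides in all, took 21.2% and 19.3%. Cdk4-208, annotated for nonsense-mediated decay, took 19.3% and 16.8%. Shares differed when taken from counts: 25.6% and 27.7% for Cdk4-201, and 18.2% and 17.8% for Cdk4-209.

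These transcripts share most of their bases, which limits how the counts can be divided. The 25 bases in capitals above are all that Cdk4-209 has apart from Cdk4-201, and Cdk4-205 has 18. Cdk4-208 has 0 such bases and is set apart by its skipped exon. Summed over complete coding transcripts alone, Cdk4 had 116 and 128 TPM (122 ± 7.91), so the deposited gene level was 9.50-fold and 8.35-fold as high. With all of the gene's counts put on the length of Cdk4-201, its level was 454 and 447 TPM (450 ± 4.43).

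The rank of Cdk4 therefore depended on how transcripts were treated. With complete coding transcripts alone it had rank 4 of the 10, after Ccnd3, Cdkn1a and Ccnd2, and it took 55.3% ± 1.48 of the kinase level beside 35.2% ± 1.59 for Cdk2. With all counts on 1 length it was not separable from Ccnd3, at 455 and 427 TPM. Cdk4 stayed above Cdk6 in each case, by 52.3 ± 3.96-fold in deposited TPM, 5.87 ± 0.0893-fold over complete coding transcripts and 21.7 ± 1.29-fold with all counts on 1 length. The 3′ end of Cdk4 overlaps Tspan31 on the opposite strand over 641 bases (132 and 125 TPM for Tspan31), and whether reads there were assigned by strand is not given in the sources used here.

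**Figure D2:**
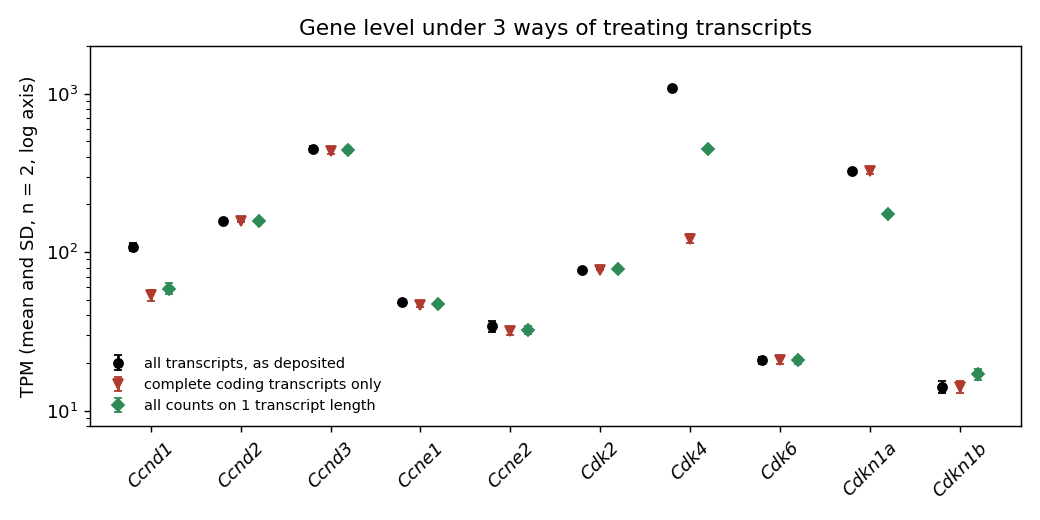
Level of each gene (mean and SD of 2 libraries, log axis) from all transcripts as deposited, from complete coding transcripts alone, and from all counts on the length of the complete coding transcript with most counts. Cdk4 falls from 1085 TPM to 122 or 450 TPM and Ccnd1 from 108 to 53.4 or 59.0 TPM, and Cdkn1a has 323, 323 and 175 TPM, while Ccnd2, Ccnd3 and Cdk6 stay near their deposited level.

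Cdk2 was divided between 2 complete coding transcripts. Cdk2-201, of 2288 nucleotides, took 71.1% and 74.6% of TPM, and Cdk2-202, which holds the 144-nucleotide exon shown above, 28.9% and 25.4%. In TPM these were 55.4 and 57.6 for Cdk2-201 beside 22.5 and 19.6 for Cdk2-202, and the values did not overlap. The 5′ end of the Cdk2 gene overlaps Pmel on the opposite strand by 837 bases. Cdk6-202 took 100% of Cdk6 in both libraries, and its table length of 3735 nucleotides was 11525 in M21, so a level per length for Cdk6 depends on the annotation release.

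Of the 2 inhibitors, Cdkn1a was high and Cdkn1b was the lowest of the 10 genes. Cdkn1a, at chr17:29090976-29100727, was measured at 331 and 314 TPM (323 ± 12.6). Cdkn1b, at chr6:134920401-134925513, was measured at 15.2 and 13.3 TPM (14.2 ± 1.27). In deposited TPM, Cdkn1a was 22.7 ± 1.14-fold the level of Cdkn1b. The third gene of the family, Cdkn1c, which is imprinted, was higher than both at 1084 and 922 TPM (1003 ± 114) and took 74.8% ± 1.37 of Cip/Kip TPM. Cdkn1a took 24.1% ± 1.37 and Cdkn1b 1.06% ± 0.00682. Cdkn1c was 3.10 ± 0.233-fold the level of Cdkn1a and 70.3 ± 1.74-fold that of Cdkn1b. With all counts of each gene on 1 transcript length, Cdkn1a was 10.3 ± 0.729-fold the level of Cdkn1b, and Cdkn1c 5.75 ± 0.596-fold that of Cdkn1a.

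The 3 Cdkn1a transcripts carry the same 477 coding nucleotides and differ both by start and by 3′ end. In M21, Cdkn1a-201 ends at position 29100722, Cdkn1a-202 at 29099701 and Cdkn1a-203 at 29099577. Cdkn1a-202, which starts at the upstream promoter that holds the ACATGT pair, was measured at 208 and 183 TPM, 62.9% and 58.5% of the gene. Cdkn1a-201, from the downstream promoter, was measured at 86.1 and 91.9 TPM, 26.0% and 29.3%. Cdkn1a-203, which starts at position 29097900, took 11.2% and 12.2%. By counts the order of the first pair turned, with 48.8% and 52.9% for Cdkn1a-201 and 42.4% and 37.9% for Cdkn1a-202. Table lengths are 1910 nucleotides for Cdkn1a-201 and 748 for Cdkn1a-202, and M21 gives the latter as 922, so the ratio of the starts depends on where the 3′ ends are drawn. With all counts on the length of Cdkn1a-201, Cdkn1a had 175 ± 1.83 TPM.

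Both Cdkn1b transcripts carry the same coding sequence of 591 nucleotides. Cdkn1b-201 took 80.5% and 79.0% of TPM. Cdkn1b-202, which keeps an intron of 2159 nucleotides, took 19.5% and 21.1%, from 325 and 322 counts.

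**Figure D3:**
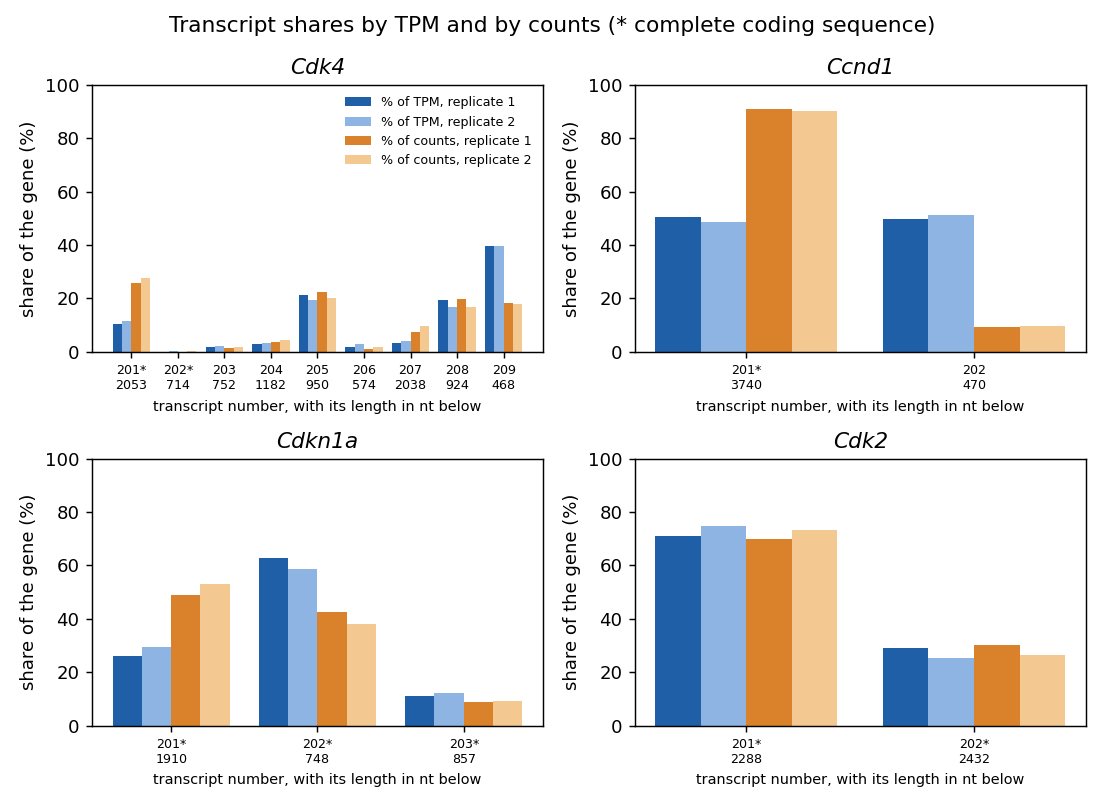
Share of each gene (%) taken by each transcript of Cdk4, Ccnd1, Cdkn1a and Cdk2, by TPM (blue) and by counts (orange) in both replicates, with transcript length in nucleotides. The short Cdk4-209 and Ccnd1-202 take a larger share of TPM than of counts: Cdk4-209 has 39.6% against 18.2% in replicate 1 and Ccnd1-202 has 49.6% against 9.11%.

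Over all 54 transcripts of the 10 genes in the tables, 21 took 5% or more of their gene in either library. Of these, 16 had a complete coding sequence. Complete coding transcripts took under 90% of TPM in both libraries for 2 genes, Cdk4 and Ccnd1. The leading transcript was the same in both libraries for 9 genes, Ccnd1 being the exception.

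In deposited TPM the full order was Cdk4, Ccnd3, Cdkn1a, Ccnd2, Ccnd1, Cdk2, Ccne1, Ccne2, Cdk6 and Cdkn1b. Each neighbour pair kept its order in both libraries, with no overlap between the replicate values of one and those of the next. Between means of the 2 libraries, the smallest steps were from Ccnd3 to Cdkn1a and from Ccnd1 to Cdk2, 1.39-fold each. Within a library the smallest was 1.32-fold, Cdk6 over Cdkn1b in replicate 1. The deposited credibility bounds of neighbours did not overlap either. These bounds lie around the posterior mean, which can be lower than TPM: for Ccnd2 they ran from 154 to 158 in replicate 1, below its 160 TPM. The order of Ccnd1 and Cdk2 was reversed under the other transcript treatments. Cdk2 had a mean of 77.5 TPM against 53.4 for Ccnd1 over complete coding transcripts, and 78.9 against 59.0 with all counts on 1 length. From the seventh place on, Ccne1, Ccne2, Cdk6 and Cdkn1b held the same places in all 3 scales of the plot of transcript treatments.

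Genes that act with these were taken from lists chosen by role. Of the INK4 inhibitors, which bind Cdk4 and Cdk6 alone, Cdkn2d had 52.1 ± 3.44 TPM, Cdkn2c 19.3 ± 2.09 and Cdkn2b 5.16 ± 0.113. Cdkn2a was near the limit of detection with 2.00 and 1.00 counts. All 3 genes of the CDK-activating kinase were detected, Ccnh at 54.5 ± 1.53 TPM, Mnat1 at 28.1 ± 0.262 and Cdk7 at 18.5 ± 0.636. The Cdc25 phosphatases, which remove inhibitory phosphates from kinases, had 44.2 ± 3.15 TPM for Cdc25b, 21.7 ± 0.997 for Cdc25c and 18.7 ± 0.0849 for Cdc25a.

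Downstream of the kinases, the 3 pocket proteins had close levels. Rb1 had 19.0 ± 0.940 TPM, Rbl2 16.2 ± 1.09 and Rbl1 15.1 ± 0.304. All 10 E2F and DP factors were detected. Tfdp1, the main dimer partner of E2Fs, was highest at 124 ± 0.00707 TPM, then E2f4 at 55.5 ± 5.73 TPM, a factor that acts mainly in repression. E2f6 had 27.8 TPM, Tfdp2 25.6, E2f5 20.4, E2f1 19.9, E2f7 19.8, E2f8 15.6, E2f3 9.18 and E2f2 8.96.

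Among 12 genes of G1 protein turnover, all detected, Skp1a (621 ± 30.0 TPM), Cks1b (277 ± 11.7) and Ddb1 (242 ± 3.80) were highest. Skp1a and Cks1b serve the ubiquitin ligase that marks p27 for destruction. Of the 10 genes of the p53 list, Bax (113 ± 3.43 TPM), Trp53 (109 ± 2.46) and Phlda3 (92.2 ± 4.38) were highest. That list had median levels of 37.7 and 42.0 TPM and ran from 1.09 to 113 TPM. The 18 DNA replication genes had median levels of 71.4 and 69.3 TPM, led by Pcna (161 ± 9.14), Tyms (145 ± 7.06) and Mcm6 (142 ± 2.69). The 16 mitosis genes had medians of 65.5 and 67.5 TPM, led by Cdk1 (285 ± 17.6), Birc5 (184 ± 10.3) and Ccnb1 (134 ± 0.0849). The 10 G1 genes ran from 14.2 to 1085 TPM, the replication list from 5.92 to 161 and the mitosis list from 16.1 to 285. Those ranges are given side by side as a description.

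**Figure D4:**
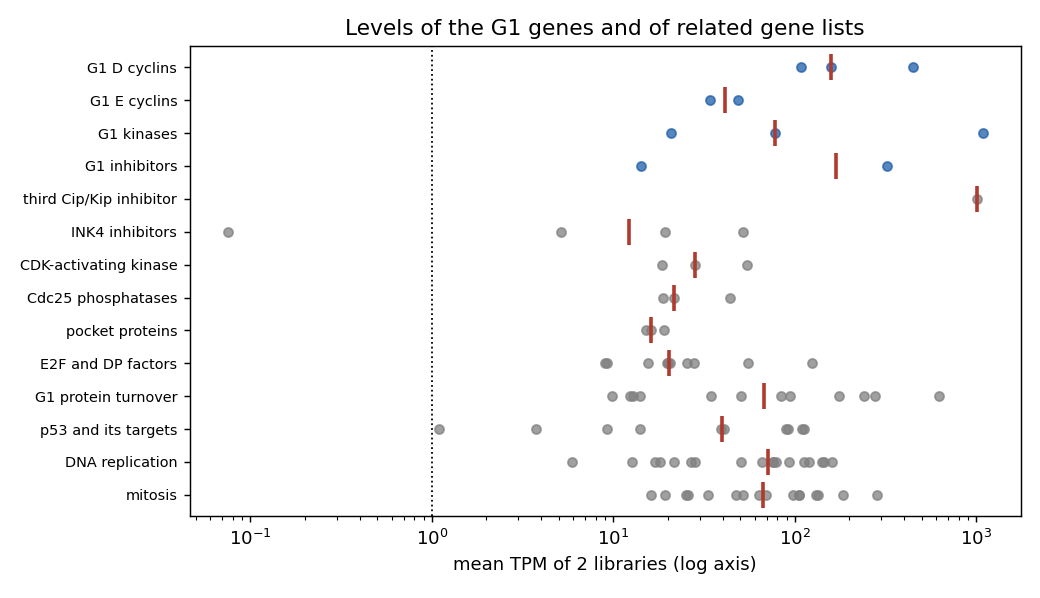
Mean TPM of 2 libraries (log axis) for each gene of the G1 groups (blue) and of related lists (grey), with the median of each list as a red bar and a dotted line at 1 TPM. Cdkn1c stands alone at 1003 TPM, the pocket proteins lie together between 15.1 and 19.0 TPM, and Cdkn2a is the gene left of the line.

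Between the replicates the 10 genes moved little relative to the other genes. After scaling of counts by the trimmed mean of M-values (TMM), 0 of 10 genes differed by more than 1.5-fold, a size passed by 9.08% of the 18318 genes tested (at least 10 counts in each library). All 10 had more than 500 counts, and among the 10085 genes with at least that many 0.892% passed, so a count of 0 in 10 is near the background. Median absolute log2 ratio was 0.073 for the 10 genes, 0.118 over all tested and 0.073 over those with 500 or more counts. Cdkn1b had 1014 and 943 counts and a log2 ratio of replicate 2 over replicate 1 of -0.16 (counting SE 0.0653). Ccnd1 had 5584 and 5213 counts and also -0.16 (0.0278). Cdk6, at 0.10 (0.0469), was the most positive, and Cdk4, Cdk2 and Cdkn1a were each at -0.02. With scaling by spike-in counts, 9 of the 10 were past 1.5-fold and lower in replicate 2, and the median log2 ratio of all genes was -0.65.

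Some cell type markers differed between the pools. All 6 cartilage markers were higher in replicate 2 and past 1.5-fold, with summed levels of 439 and 734 TPM. All 6 skeletal muscle markers were lower there (median 0.747-fold, summed 2439 and 1828 TPM), as were all 5 erythroid markers (0.748-fold, 26641 and 20164 TPM), with no gene of either list past 1.5-fold. No cartilage, muscle or erythroid marker was at 0 in either library. The part of these cells in the levels and ratios of the G1 genes was not tested.

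**Figure D5:**
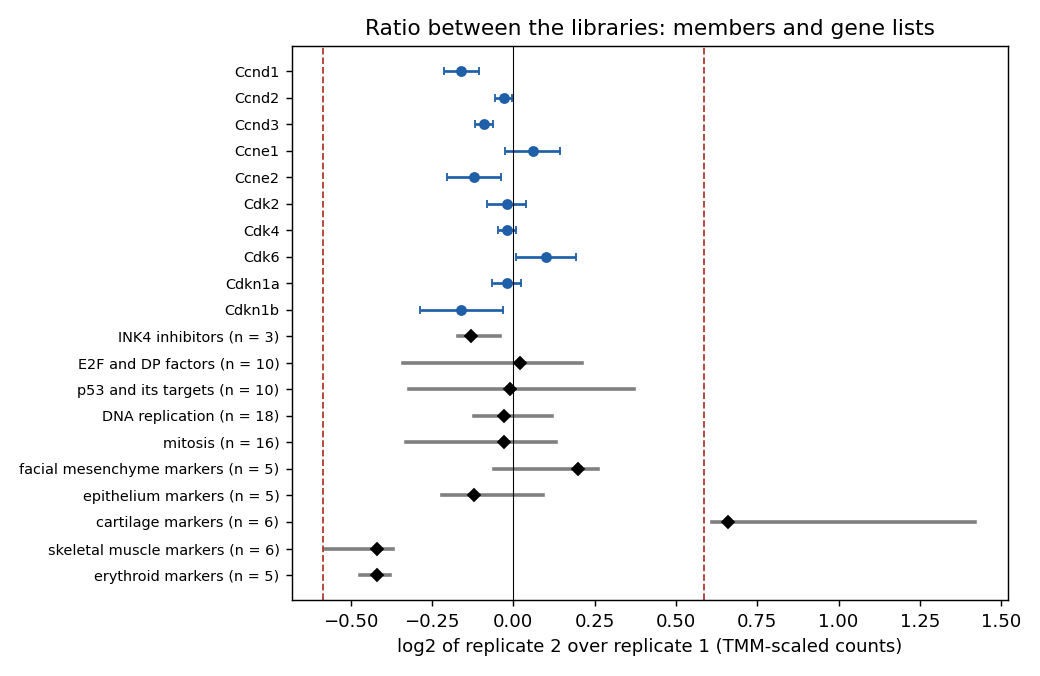
Log2 ratio of replicate 2 over replicate 1 in TMM-scaled counts for each G1 gene (blue, bars are 95% intervals for counting error alone) and for gene lists (median as diamond, range as line), with 1.5-fold as dashed lines. The G1 genes lie between -0.16 and 0.10, inside both dashed lines, while the cartilage markers lie between 0.61 and 1.42.

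Overlap with other genes touched most of the 10. Genes on the opposite strand overlap Ccnd1 (LTO1, 1771 bases), Ccnd2 (9330179D12Rik, 2805 bases), Ccnd3 (Bysl, 361 bases), Ccne2 (Ints8, 5622 bases), Cdk2 (Pmel) and Cdk4 (Tspan31), and M21 has further opposite-strand models at Ccnd2, Cdk6 and Cdkn1a that were not used here. Those lengths are between whole gene spans, introns included. Between transcripts, the longest matched stretch was 818 nucleotides for LTO1, 361 for Bysl, 474 for Ints8 and 641 for Tspan31. Ccne1 and Cdkn1b had no overlapping gene in M21. Of the overlapping genes in the tables besides Tspan31, levels were between 1.85 and 31.2 TPM.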

How the data were processed

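Total RNA of 2 libraries of embryonic facial prominence was analysed as 1 group. The authors quantified each library by itself on mouse assembly mm10 with annotation M4, per the labels and text deposited with the files. For the program, its version and its handling of strand, the sources used here give nothing. For each gene and transcript the authors deposited an expected count and TPM, a posterior mean TPM, and the percent of the gene taken by each transcript. The deposited credibility bounds, in TPM, sum to no fixed total and were treated as a score, and their level is not in the headers. TPM was scaled by the authors over genes, spike-ins and numbered sequences together, so spike-ins (6.42% and 10.1% of TPM) lower the TPM of genes. Expected counts summed to 37128010 and 38543623, with 2.91% and 4.59% from spike-ins. Of 69691 rows, 97 were spike-ins and 26248 numbered sequences, and none of these entered a comparison except the spike-ins for scaling.

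Genes were named by GENCODE M21, matched without version numbers, which held 42462 of the 43346 mouse identifiers. Coordinates are GRCm38 (mm10), from M21. Where M21 gives another length than the tables, the table length was used. Transcripts called complete coding are typed protein-coding and carry no tag for an incomplete end in M21. Scales that use them were added after seeing the data. Ratios used expected counts rounded to whole numbers, a minimum of 10 in each library, and a prior count of 2. TMM factors (0.989 and 1.01) were computed with edgeR 4.0.16 under R 4.3.3. DESeq2 1.42.0 gave size factors for an alternative scaling, under which the log2 ratios of the 10 genes again ran from -0.16 to 0.10. The scaling was run on simulated counts, drawn for both libraries from the same means, with some genes changed by a known fold. The simulation did not copy the differences in spike-ins and cell types between the real libraries, so it cannot show how the scaling handles them. A counting SE covers sampling of reads alone, and no p-value is given, since 1 group allows no test. Near copies were transcripts of other genes matched by blastn 2.17.0 at 95% identity or more over 200 nucleotides or more. Other steps used Python 3.11.15, numpy 2.4.6, pandas 2.3.3 and matplotlib 3.10.9.

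The 10 genes, the lists and the motifs were chosen with earlier results of these data known. The text names the 10 genes in full, each gene of the Cdkn1c, INK4, pocket protein, E2F and DP, CDK-activating kinase and Cdc25 lists, the 3 highest of the turnover, p53, replication and mitosis lists, and transcripts at 5% or more in either library. Marker lists were facial mesenchyme (Msx1, Prrx1, Dlx5, Osr2, Twist1), epithelium, cartilage, skeletal muscle, erythroid, macrophage, endothelium, forebrain and liver, and their genes are given as sums and counts. No gene was named for likeness of pattern, since 2 libraries give 1 ratio a gene.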

Additional observations from a re-analysis of the deposited data

How the results depend on the processing

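Alternatives changed values through the treatment of transcripts and the scaling, and left detection (10 of 10 at 0.1, 5 and 10 TPM and in each library) as it was. The median level of the 10 genes, 92.6 TPM, became 101 TPM with TPM rescaled over mouse genes, 65.5 TPM over complete coding transcripts and 69.0 TPM with all counts on 1 transcript length, and 90.2 to 95.1 TPM with 1 library left out. Over complete coding transcripts, Ccnd1, Ccnd2 and Ccnd3 took 8.23%, 24.4% and 67.4% of the D cyclin level and Cdk4 55.3% of the kinases. With all counts on 1 length these were 8.96%, 24.0%, 67.0% and 81.9%, and Cdkn1a, Cdkn1b and Cdkn1c took 14.7%, 1.42% and 83.9% of the Cip/Kip level. Shares without 1 library ran from 14.9% to 15.3% for Ccnd1, 21.8% to 22.5% for Ccnd2, 62.6% to 62.9% for Ccnd3, 57.2% to 60.4% for Ccne1 and 91.5% to 91.9% for Cdk4.

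Scaling by spike-in counts put 9 of the 10 genes past 1.5-fold, all lower in replicate 2, with log2 ratios of the 10 from -0.82 to -0.55. It moved the median of all genes by -0.65 and put 65.6% of them past that fold, so the 10 genes moved with the rest. The other 6 settings for scaling, prior count, filter and fold put 0 of the 10 past the fold. Over all genes tested, 3.17% passed with the higher fold, 20.4% with the lower fold and 24.0% without the filter. Under the remaining settings 9.08% to 9.61% passed. For genes with 500 or more counts, no share is given under these 6 settings. Under them the 10 genes were therefore not compared with genes of similar counts, and nothing is read from those counts of 0. At the main setting, where 0.892% of genes with 500 or more counts passed, 0 in 10 is near the background. With posterior means, 19 transcripts took 5% or more of their gene, and 20 in either library alone, beside 21. Between replicates, Ccne2-204 had 14.3 counts and 0, and Ccne2-207 had 36.5 and 154. Macrophage and endothelium markers had median ratios of 0.913 and 0.943. No paired analysis was possible because the libraries form 1 group.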
